A study of Mus musculus with 39 samples.

Results

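Satellite cells, the stem cells of skeletal muscle, were compared 1 day after muscle injury between mice depleted of γδ T cells and mice that kept them. The comparison held 6 of the 39 libraries of the series: 3 of satellite cells from depleted mice and 3 of satellite cells from wild-type mice, named as such in the labels. Its members were the 12196 genes, of 55011 symbols in the count table, that had 10 or more counts in at least 3 of these 6 libraries. Of these genes, 45 passed by the DTR (depleted) libraries alone, with fewer than 10 counts in every wild-type library.

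Satellite cells lie quiescent between the muscle fibre and its basement membrane and are known by the transcription factor Pax7. After injury they enter the cell cycle, express the myogenic factors Myf5 and Myod1, and later either differentiate into new fibres, a step driven by Myog, or return to quiescence. γδ T cells are lymphocytes that settle in tissues, and a lineage of them is known as an early source of interleukin 17A (IL-17A), a cytokine read by cells that carry the receptor chains Il17ra and Il17rc.

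The depleted group (DTR) came from Tcrd-DTR mice, whose γδ T cells carry a receptor that makes them sensitive to diphtheria toxin, and the control group (WT) from wild-type mice. Mice of both groups were given diphtheria toxin (i.p.) and an injury of the hindlimb muscle with cardiotoxin, a venom peptide that destroys muscle fibres. The cells were freed from the muscle by enzymes and sorted by fluorescence at 1000 cells per library, and polyA RNA was sequenced. The labels give no age, sex or sorting markers, and they call the replicates independent and biological. Whole tibialis anterior muscle of the same genotypes, toxin, injury and day (3 DTR and 3 WT libraries, 2 ng of RNA each) is used beside the sorted cells. Levels are given in CPM, counts scaled to the library total. After a mean, ± gives the SD (n = 3 per group), and after a log2 change it gives the standard error. Every log2 change is DTR minus WT.

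The 6 libraries held between 5019474 and 6024015 counts, all 3 DTR libraries being deeper than the WT libraries (exact permutation test, 2-sided, p = 0.1, the smallest that 3 against 3 can give). A pair of libraries stood apart. WT replicate 3 had 0.257% of its counts on mitochondrially encoded genes, against 0.731% to 0.858% in the other 5 libraries, and it lay apart on the leading principal component (34.9% of the variance). The deviation of its genes from the mean over libraries correlated with their GC content (Spearman's rho 0.607 across genes, which are not independent, against -0.294 to -0.154 in the other 5). DTR replicate 1 led the next component (23.5%) and held RNA of mature muscle fibres: the 18 fibre markers summed to 4540.1 CPM there, against 85.2 to 142 CPM in the others. Medians of many lists are given with and without either library or both, and changes of single genes only where stated.

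No gene passed the threshold in satellite cells. In the quasi-likelihood test of edgeR, 0 of 12196 genes (0%) had a Benjamini-Hochberg adjusted p under 0.05, and the smallest adjusted p was 0.357, for Thbs1. At an unadjusted p under 0.05 there were 727 genes (5.96%), of which 424 were higher in DTR cells (3.48%) and 303 lower (2.48%). Every DTR library stood above every WT library for 782 genes (6.41%) and below it for 838 (6.87%), and the lists described here are read against these shares. The median log2 change over all genes was 0.02, and 6421 genes were above 0. Since none passed, the genes named here are Pax7, Myf5, Myod1, Myog, Cdkn1a, Mki67, Il17ra, Il17rc and Hbegf, for each list the 2 genes of smallest p, and others chosen after their values were seen. The 95% interval of the change stayed within 2-fold either way for 8613 genes (70.6%) and within 4-fold for 11720 (96.1%). DESeq2, run as an alternative on the same counts, called 11 genes higher in DTR cells and 0 lower, of 11709 with an adjusted p (0.0939%).

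**Figure D1:**
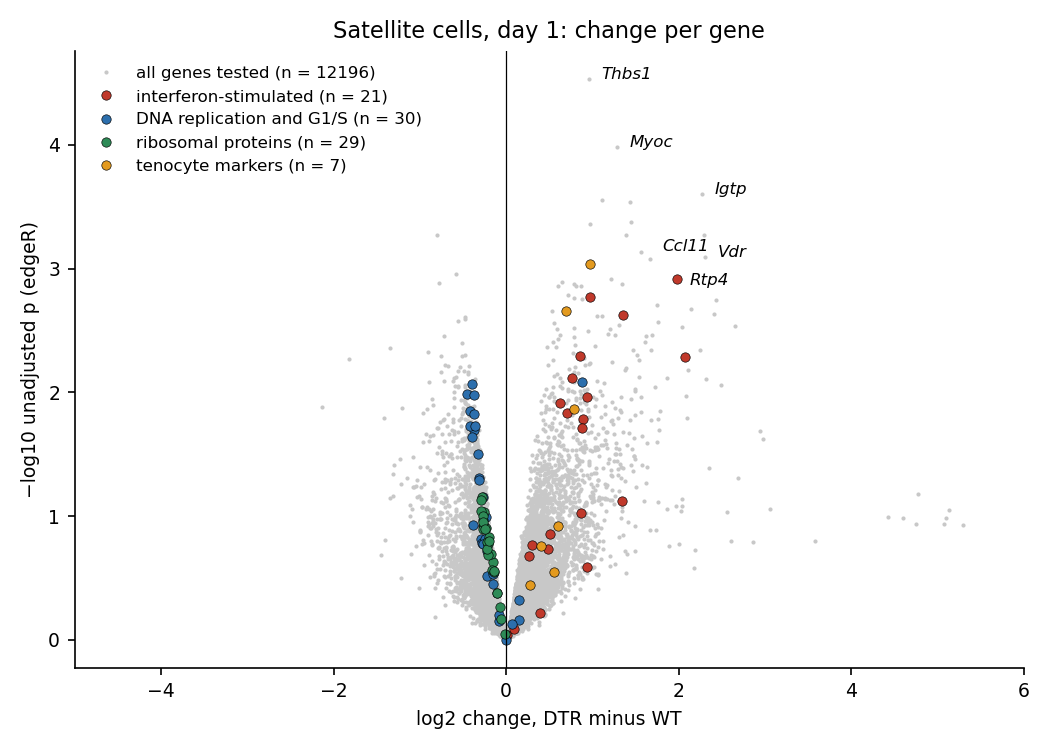
Log2 change, DTR minus WT (x axis), against the −log10 of the unadjusted p of edgeR's quasi-likelihood test (y axis) for the 12196 genes; coloured points are members of 4 lists. The 21 interferon-stimulated genes lie right of 0, the 29 ribosomal protein genes lie left of it, and no gene passed after adjustment.

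Genes of the γδ T cell receptor had few counts in sorted satellite cells, and such counts cannot show whether the depletion worked. Trdc, the constant chain of the γδ T cell receptor (chr14:54142851-54148868), had 0, 2 and 3 counts in DTR libraries, against 11, 14 and 6 counts in WT libraries. These are 0.288 ± 0.258 CPM in DTR cells and 1.96 ± 0.742 CPM in WT cells (SD, n = 3 each), and the groups did not overlap (exact permutation test, 2-sided, p = 0.1, the smallest possible). Over each group's summed counts, 5 in DTR cells and 31 in WT cells, the ratio was 0.147 with an exact binomial 95% interval of 0.0447 to 0.382, which covers counting error only. Trdc lay below the count filter and was not tested across genes. Trdv4, Trgc1, Trgc2 and Trgv6 had 0 counts in all 6 libraries, and Trgc4 had 2, in WT replicate 2. The T cell genes Cd3d, Cd3e and Cd3g had 0 to 2 counts per library. Whole muscle held 0.182 to 1.06 CPM of Trdc. Over the 6 listed receptor genes, whole muscle summed to 1.09, 1.85 and 1.13 CPM in DTR mice (19 counts). In WT mice the sums were 0.902, 1.22 and 0.697 CPM (15 counts), so the lower level in DTR was not seen in whole muscle.

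Pax7 and Myod1, markers of activated satellite cells, stood above whole muscle in the sorted cells of both groups, and Myod1 was high. Pax7 had 25.1, 32.1 and 25.1 CPM in DTR cells, against 24.1, 23.9 and 37.1 CPM in WT cells, while whole muscle had 0.946 to 2.36 CPM. Myod1, the factor that commits the cells to muscle, had 2991, 3322 and 3097 CPM in DTR cells, against 3509.9, 3288 and 4352 CPM in WT cells, and whole muscle 93.2 to 148 CPM. Myod1 averaged 3866 ± 243 TPM, a level scaled for transcript length, in DTR cells and 4560.4 ± 651 in WT cells, far above Pax7 at 10.7 ± 1.67 and 11.1 ± 2.85 TPM. Myog, which marks differentiating cells, was low and uneven, with 5.62, 1.46 and 2.82 CPM in DTR cells, against 15.7, 0.191 and 10.8 CPM in WT cells. Genes of fusion were near 0, with at most 2 counts of Mymk and 1 of Mymx in any library.

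Tendon markers were also high, which the label does not say. The 7 tenocyte markers summed to 12683, 22114 and 22637 CPM in DTR cells, against 16064, 12100.2 and 14197 CPM in WT cells, while whole muscle held 622 to 1806 CPM. Most of this was Thbs4, a matrix protein of tendon and muscle, which ranked 2 of all symbols per length in DTR cells and 4 in WT cells (11361 ± 4249 TPM in DTR cells and 8570.2 ± 1063 TPM in WT cells). The 14 markers of fibro-adipogenic progenitors, the matrix-making mesenchymal cells of muscle, summed to 8514, 10664 and 11058 CPM in DTR cells and 7981, 6895 and 8965 CPM in WT cells. Their surface marker Ly6a was near 0, with 0.702, 2.74 and 0.166 CPM in DTR cells, against 2.19, 1.91 and 2.19 CPM in WT cells and 227 to 515 CPM in whole muscle. Marker sums of immune cells were low: 18 macrophage markers summed to 14.9 to 25.8 CPM in DTR cells and 17.6 to 26.7 CPM in WT cells, against 1343 to 3395 CPM in whole muscle. C1qa, Itgam, Spi1 and Lyz1 had 0 counts in all 6 satellite cell libraries. In bulk libraries such as these, fewer cells of a type and less RNA per cell cannot be told apart.

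**Figure D2:**
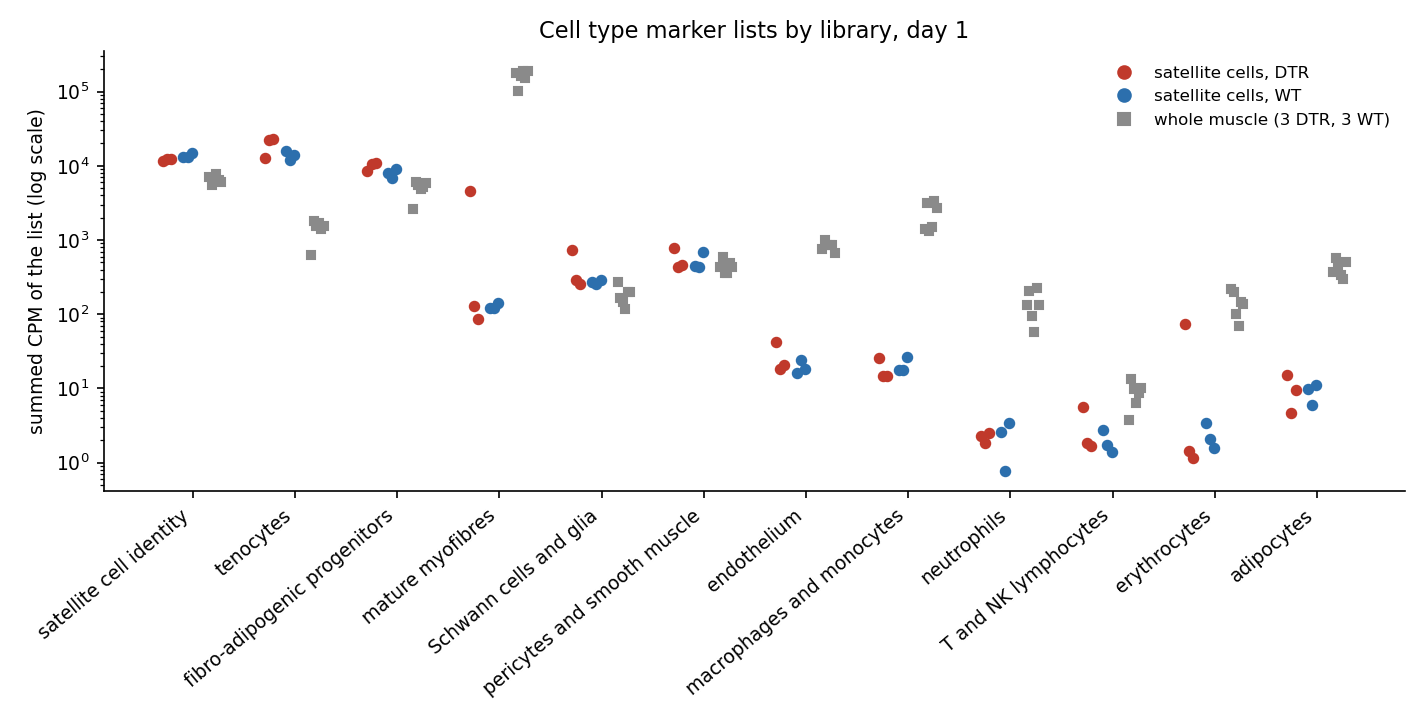
Summed CPM of cell type marker lists (log axis) in each day 1 library: satellite cells of DTR mice (red), of WT mice (blue) and whole muscle of both (grey squares). Tenocyte sums of sorted cells (12100 to 22637 CPM) lay above every whole muscle library, macrophage sums lay far below, and DTR replicate 1 stood apart for fibre, glial and erythrocyte markers.

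Interferon-stimulated genes stood higher in DTR cells as a group, although none passed alone. These genes are switched on when a cell senses interferon, and they act against viruses and intracellular microbes. Of 23 listed genes 21 were tested, 0 passed in either direction with edgeR, and all 21 had a log2 change above 0, with a median of 0.85, beside 6421 of 12196 and 0.02 over all genes. In 11 of the 21 every DTR library stood above every WT library (6.41% of all genes did). The list summed to 565, 417 and 365 CPM in DTR cells, against 329.6, 291 and 284 CPM in WT cells, so the groups did not overlap. DTR replicate 1 was the highest library for 17 of the 21, and without it the median was 0.58; without both libraries that stood apart it was 0.53.

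Among the sensors of viral RNA, Ddx58 (RIG-I) had 26.5, 18.2 and 22.2 CPM in DTR cells, against 11.3, 13.4 and 9.16 CPM in WT cells. Its log2 change was 0.98 ± 0.24 (edgeR adjusted p = 0.752). The related sensor Ifih1 (MDA5) had 14.9, 18.2 and 9.46 CPM in DTR cells, against 7.31, 5.73 and 3.39 CPM in WT cells, a log2 change of 1.36 ± 0.35. In both genes the groups did not overlap. Rtp4, an interferon-induced chaperone of receptors, had 8.599, 5.65 and 4.15 CPM in DTR cells, against 2.19, 0.956 and 1.39 CPM in WT cells and a log2 change of 1.98 ± 0.46 (edgeR adjusted p = 0.708).

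The factors that relay the signal come next. Irf7, which amplifies the type I response, had 16.7, 13.5 and 15.3 CPM in DTR cells, against 9.14, 7.26 and 8.57 CPM in WT cells, with no overlap and a log2 change of 0.85 ± 0.25. Irf9 had 38.4, 29.5 and 24.4 CPM in DTR cells, against 21.02, 21.2 and 17.1 CPM in WT cells, also without overlap. Bst2, which tethers virus to the cell, was level between the groups at 46.4 ± 1.48 CPM in DTR cells and 45.8 ± 1.53 CPM in WT cells (log2 change 0.02 ± 0.15, 95% interval -0.31 to 0.34).

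Guanylate-binding proteins and the immunity-related GTPases attack the vacuoles of microbes and are induced above all by interferon γ. Of the 4 given here Gbp2 is on the list, while Igtp, Gbp7 and Irgm1 are not and were named after their values were seen. Igtp (chr11:58199556-58207591) had 15.97, 8.57 and 8.13 CPM in DTR cells, against 3.29, 1.15 and 2.19 CPM in WT cells, a log2 change of 2.27 ± 0.43 (95% interval 1.32 to 3.22, edgeR adjusted p = 0.657, DESeq2 adjusted p = 0.00945). Gbp7 had 15.8, 14.95 and 10.3 CPM in DTR cells, against 4.39, 5.16 and 5.98 CPM in WT cells (log2 change 1.39 ± 0.29). Gbp2 had 115, 80.96 and 63.1 CPM in DTR cells, against 61.2, 36.5 and 52.99 CPM in WT cells, and Irgm1 had 44.7, 25.7 and 34.03 CPM in DTR cells, against 22.3, 20.3 and 16.9 CPM in WT cells. None of these 4 genes overlapped between the groups, which for the 3 off the list is how they were chosen.

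Class I antigen presentation, which interferon also induces, showed this for some of its genes. Nlrc5, the factor that drives class I genes, had 21.2, 10.6 and 7.304 CPM in DTR cells, against 6.03, 3.06 and 5.58 CPM in WT cells (log2 change 1.39 ± 0.42). B2m, the common light chain, had 331, 313 and 317 CPM in DTR cells, against 293, 239.9 and 158 CPM in WT cells (log2 change 0.47 ± 0.18), with WT replicate 3 the lowest. The heavy chain gene H2-K1 overlapped between the groups, with 360.4, 316 and 359.9 CPM in DTR cells, against 367, 308 and 385 CPM in WT cells. Of the 14 genes of the list 9 were above 0, with a median of 0.13, which ran from 0.02 without WT replicate 2 to 0.22 without WT replicate 3.

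**Figure D3:**
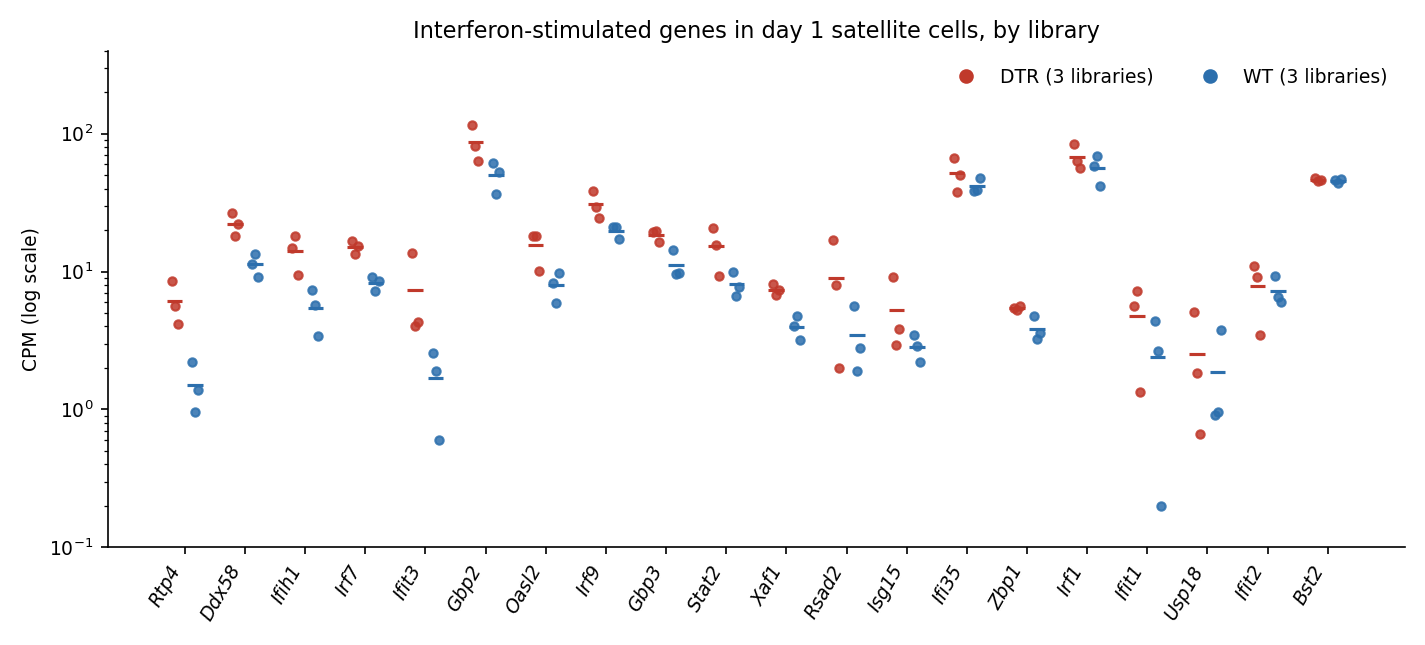
CPM (log axis) of interferon-stimulated genes that were tested and are reported here, in the 3 DTR (red) and 3 WT (blue) satellite cell libraries, ordered by unadjusted p, with bars at the group means. Libraries of the groups are separate for 11 genes, and Bst2 at the right is level.

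The promoters of these genes were searched on both strands for AANNGAAA, the core letters that interferon regulatory factors bind (N is any base). The list was chosen as interferon-stimulated genes, so a high share describes the list and not the change in these cells. RefSeq promoter sequences (GRCm38.p6, 250 bases before to 50 after each gene start) were found for 17 of the 21 tested members, and 12 of these genes held a match. By promoter this was 12 of 21 (57.1%), beside 7857 of 32851 promoters in the whole table (23.9%) and 2060 of 11854 of the genes tested (17.4%). A match is a description of these letters and not a site of binding. Irf7 and Irf9, whose groups did not overlap, had 0 promoters with a match, while Bst2, which was level, had 1. The promoters of Igtp, which is not on the list, and of the sensor genes Ddx58 and Ifih1 are shown, with 2 matches each in capitals. In Igtp and Ifih1 the 2 matches overlap and form 1 run.
Igtp (chr11:58199306-58199605, plus strand): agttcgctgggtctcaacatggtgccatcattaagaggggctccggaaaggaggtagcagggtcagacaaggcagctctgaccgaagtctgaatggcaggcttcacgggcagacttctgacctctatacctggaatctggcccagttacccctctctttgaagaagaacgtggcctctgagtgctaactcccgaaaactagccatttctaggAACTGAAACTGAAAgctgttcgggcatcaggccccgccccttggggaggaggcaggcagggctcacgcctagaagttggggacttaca
Ddx58 (chr4:40239776-40240075, minus strand): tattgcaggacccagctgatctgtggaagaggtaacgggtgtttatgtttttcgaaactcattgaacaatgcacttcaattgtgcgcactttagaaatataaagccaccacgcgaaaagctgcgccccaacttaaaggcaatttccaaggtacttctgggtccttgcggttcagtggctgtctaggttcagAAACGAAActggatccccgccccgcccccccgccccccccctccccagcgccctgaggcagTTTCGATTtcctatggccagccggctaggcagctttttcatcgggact
Ifih1 (chr2:62646206-62646505, minus strand): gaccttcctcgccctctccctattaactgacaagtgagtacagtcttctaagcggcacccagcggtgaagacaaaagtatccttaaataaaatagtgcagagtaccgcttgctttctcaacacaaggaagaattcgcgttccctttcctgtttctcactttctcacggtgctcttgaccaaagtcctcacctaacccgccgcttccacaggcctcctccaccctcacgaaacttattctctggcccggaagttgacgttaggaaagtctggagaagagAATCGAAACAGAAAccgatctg

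Of the 11 genes that DESeq2 called, Tnmd is on the tenocyte list, Dpp4 on that of fibro-adipogenic progenitors, Pdgfrb on that of pericytes and Ccl11 on that of cytokines. The other 7 (Thbs1, Myoc, Igtp, Kera, Kcne4, Vdr and Crabp1) are on none of the lists. Each of the 11 stood higher in all 3 DTR libraries than in any WT library, which describes genes chosen by their difference and is no further result. In edgeR none passed, and the adjusted p of these 11 genes ran from 0.357 to 0.708.

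Thbs1 (chr2:118111876-118127133) encodes thrombospondin 1, a matricellular protein that activates TGF-β and restrains vessel growth. It had 318, 299 and 231 CPM in DTR cells, against 134, 139 and 159 CPM in WT cells. The log2 change was 0.96 ± 0.14 (95% interval 0.65 to 1.27), or 1.95-fold, with an adjusted p of 0.357 in edgeR and 0.000276 in DESeq2. Without WT replicate 3 edgeR called it (log2 change 1.05 ± 0.13, adjusted p = 0.0227). Leaving out any other library did not bring it past the threshold.

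Tnmd, tenomodulin, the defining surface protein of tendon cells (chrX:133850980-133865577), had 101, 88.2 and 71.7 CPM in DTR cells, against 52.7, 51.04 and 28.3 CPM in WT cells (log2 change 0.97 ± 0.22, DESeq2 adjusted p = 0.0359). Kera, a small proteoglycan that orders collagen fibrils (chr10:97606879-97613692), had 162, 220.3 and 171 CPM in DTR cells, against 122, 74.5 and 83.9 CPM in WT cells (log2 change 0.98 ± 0.20, DESeq2 adjusted p = 0.0109). Myoc, the secreted glycoprotein myocilin (chr1:162639155-162649693), had 49.7, 65.1 and 36.4 CPM in DTR cells, against 22.3, 20.6 and 18.5 CPM in WT cells (log2 change 1.29 ± 0.22, DESeq2 adjusted p = 0.00168).

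Pdgfrb, the PDGF receptor of pericytes and fibroblasts (chr18:61045150-61085061), had 53.9, 40.5 and 50.5 CPM in DTR cells, against 26.7, 16.4 and 23.7 CPM in WT cells (log2 change 1.11 ± 0.21). Dpp4, a peptidase on the surface of fibroblast progenitors (chr2:62330073-62412231), had 21.2, 16.2 and 21.7 CPM in DTR cells, against 5.67, 9.94 and 6.18 CPM in WT cells (log2 change 1.44 ± 0.28). Ccl11, the eosinophil chemokine eotaxin (chr11:82057823-82062955), had 46.5, 24.3 and 22.4 CPM in DTR cells, against 5.48, 9.56 and 13.9 CPM in WT cells (log2 change 1.67 ± 0.36). All 3 kept DTR and WT libraries apart.

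The vitamin D receptor gene Vdr (chr15:97854425-97910630) had 10.2, 6.56 and 8.13 CPM in DTR cells, against 2.56, 0.382 and 1.99 CPM in WT cells (log2 change 2.30 ± 0.51, DESeq2 adjusted p = 0.0315). Crabp1, which binds retinoic acid, had a log2 change of 1.45 ± 0.30, and Kcne4, a subunit of potassium channels, one of 1.56 ± 0.34. Both lay below 25 CPM in all 6 libraries.

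**Figure D4:**
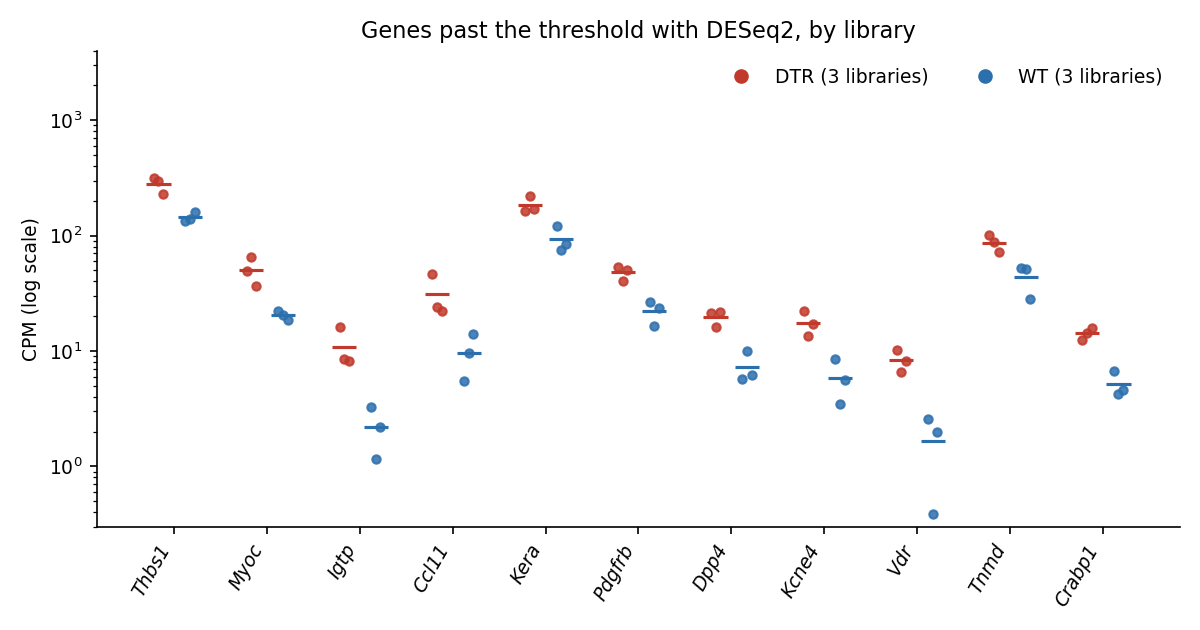
CPM (log axis) of the 11 genes with a DESeq2 adjusted p under 0.05 in the 3 DTR (red) and 3 WT (blue) libraries, with bars at the group means. The groups are separate for all 11 genes, which were chosen by their difference, and none of them passed with edgeR.

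Marker lists of tenocytes and fibro-adipogenic progenitors stood higher in DTR cells beside these genes, and their part in the result was not tested. All 7 tenocyte markers had a log2 change above 0, with a median of 0.60. In 3 the groups did not overlap, all higher (Tnmd, Fmod and Chad, beside 6.41% of all genes). The median of the 7 ran from 0.46 to 0.94 with 1 library left out. The summed level of the list overlapped between the groups (DTR replicate 1 was below WT replicates 1 and 3), and Thbs4 itself had 9135, 18481 and 19822 CPM in DTR cells, against 13399, 10343 and 12255 CPM in WT cells. Fmod, fibromodulin of tendon matrix, had 2879, 2891 and 2146 CPM in DTR cells, against 2060.2, 1434 and 1363 CPM in WT cells. Of the 11 tested progenitor markers 8 were above 0 (median 0.28; 0.18 without WT replicate 2, 0.46 without WT replicate 3 and 0.59 without both libraries that stood apart), and Dcn, Lum and Dpp4 did not overlap: Dcn, the proteoglycan decorin, had 3161, 4284 and 5054 CPM in DTR cells, against 3136, 2274 and 2727 CPM in WT cells. Pdgfra, the receptor that defines these progenitors, overlapped between the groups, with 14.7, 48.5 and 65.7 CPM in DTR cells, against 37.5, 55.6 and 40.04 CPM in WT cells. In whole muscle the medians of both lists lay the other way, at -0.31 for tenocytes and -0.42 for progenitors. Tenocyte sums there were 622, 1806 and 1554 CPM in DTR muscle, against 1672, 1430 and 1569.8 CPM in WT muscle. Progenitor sums were 2611, 6004 and 5446 CPM in DTR muscle, against 4912, 5209.8 and 5789 CPM in WT muscle. In both lists the groups overlapped, and whole muscle DTR replicate 1 was the lowest library.

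Smoc2 and Wif1, named after their values were seen, were called by edgeR when libraries that stood apart were left out. Smoc2, a matricellular protein, had 91.4, 86.2 and 81.3 CPM in DTR cells, against 34.2, 32.9 and 79.5 CPM in WT cells. WT replicate 3 lay with the DTR libraries for this gene, and without it the log2 change was 1.37 ± 0.13 (edgeR adjusted p = 0.00467), against 0.81 ± 0.31 with all 6. Wif1, a secreted inhibitor of Wnt ligands, had 54.05, 63.999 and 77.4 CPM in DTR cells, against 34.4, 27.3 and 44.03 CPM in WT cells, a log2 change of 0.88 ± 0.22 with all 6 libraries and 1.23 ± 0.18 without both (edgeR adjusted p = 0.0213).

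Myogenic genes of the satellite cell were slightly lower in DTR cells, none of them past the threshold. All 14 identity markers were tested, 9 had a log2 change below 0, and the median was -0.10, which was -0.03 without both libraries that stood apart. Myf5, the early myogenic factor, had 101, 104 and 81.3 CPM in DTR cells, against 149.5, 119 and 116 CPM in WT cells, without overlap (log2 change -0.43 ± 0.15, 95% interval -0.76 to -0.10, edgeR adjusted p = 0.8102). Itga7, the laminin receptor used to sort these cells in many protocols, had 633, 715 and 575 CPM in DTR cells, against 813, 822 and 1037 CPM in WT cells (log2 change -0.48 ± 0.15). Cdh15, M-cadherin of the contact with the fibre, had 152, 149.9 and 151 CPM in DTR cells, against 180.1, 186 and 259 CPM in WT cells (log2 change -0.47 ± 0.16), which ran from -0.57 to -0.25 under the alternatives. These 3 markers were the ones whose groups did not overlap, beside 6.87% of all genes in that direction.

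Ncam1, a cell adhesion molecule on the commitment list, and Dag1, dystroglycan, on the quiescence list, were named as genes of small p in their lists. Ncam1 had 354, 322 and 319 CPM in DTR cells, against 430.4, 426 and 413 CPM in WT cells (log2 change -0.36 ± 0.11). Dag1 had 626, 661 and 599 CPM in DTR cells, against 736, 823 and 1048 CPM in WT cells (log2 change -0.47 ± 0.15), which ran from -0.59 to -0.27 under the alternatives. Of 12 tested genes of myoblast commitment 10 were below 0, with a median of -0.22, which was -0.11 without WT replicate 3. Pax7 differed by -0.05 ± 0.23 (95% interval -0.56 to 0.45) and Myod1 by -0.25 ± 0.15 (-0.57 to 0.07).

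Notch signals keep satellite cells from differentiating. Dll1, a Notch ligand carried by differentiating myogenic cells, had 36.5, 48.9 and 24.1 CPM in DTR cells, against 67.5, 61.9 and 53.99 CPM in WT cells, without overlap (log2 change -0.75 ± 0.23). Receptors and targets overlapped between the groups where named here. Notch2, a receptor, had 253 ± 23.6 CPM in DTR cells and 249 ± 18.2 in WT cells, and the target Heyl 49.6 ± 7.63 and 45.7 ± 7.54 CPM. Over 14 tested pathway genes the median was 0.04, and -0.06 without DTR replicate 3.

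Genes of DNA replication were lower in DTR cells across most of the list, each by a small amount. At day 1 satellite cells are preparing their first division, and the Mcm helicase, its loaders and the nucleotide enzymes are made in that phase. All 30 listed genes were tested, 0 passed with edgeR, and 26 had a log2 change below 0, with a median of -0.27. In 12 of them every DTR library lay below every WT library (6.87% of all genes did), and in 1 above. The list summed to 5667, 5957 and 4726 CPM in DTR cells, against 6362, 6767 and 6569 CPM in WT cells, the groups not overlapping. DTR replicate 3 was the lowest library for 22 of the 30. Leaving out 1 library at a time gave medians of -0.37 to -0.16, and without both libraries that stood apart it was -0.28.

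Of the helicase, Mcm2, Mcm3, Mcm5 and Mcm7 had groups without overlap. Mcm7 had 481, 484 and 424 CPM in DTR cells, against 555, 588 and 650.3 CPM in WT cells (log2 change -0.38 ± 0.12, 95% interval -0.65 to -0.11, edgeR adjusted p = 0.797). Uhrf1, which carries DNA methylation through replication, had 248, 246 and 213 CPM in DTR cells, against 276, 327 and 324 CPM in WT cells (log2 change -0.40 ± 0.12). E2f2, an E2F factor that drives S phase genes, had 48.1, 46.1 and 40.5 CPM in DTR cells, against 64.5, 59.8 and 58.8 CPM in WT cells (log2 change -0.45 ± 0.15).

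The D cyclins, which carry growth signals into the cycle, differed among themselves. Ccnd1 had 122, 111 and 116 CPM in DTR cells, against 149, 132 and 171 CPM in WT cells (log2 change -0.38 ± 0.14) and Ccnd3 157, 152 and 133 CPM in DTR cells, against 170.2, 188 and 227 CPM in WT cells (log2 change -0.41 ± 0.14). Ccnd2 was the exception of the list, with 43.5, 53.2 and 86.5 CPM in DTR cells, against 40.04, 26.4 and 33.5 CPM in WT cells and a log2 change of 0.88 ± 0.27. In all 3 the groups did not overlap.

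The same promoter windows were searched for the E2F motifs TTTCCCGC and TTTGGCGC on both strands. Of the 30 replication genes 23 had a sequence, and 8 of these held a match. By promoter this was 8 of 27 (29.6%), beside 514 of 32851 in the whole table (1.56%) and 353 of 11854 of the genes tested (2.98%). The replication list too was chosen by function, so this share describes the list and not the change in these cells. The 2 motifs do not share a match in the promoters printed, each of which holds 1. The promoters of the 2 genes with a match and the smallest p among those below 0 are shown, with the match in capitals.
E2f2 (chr4:136172024-136172323, plus strand): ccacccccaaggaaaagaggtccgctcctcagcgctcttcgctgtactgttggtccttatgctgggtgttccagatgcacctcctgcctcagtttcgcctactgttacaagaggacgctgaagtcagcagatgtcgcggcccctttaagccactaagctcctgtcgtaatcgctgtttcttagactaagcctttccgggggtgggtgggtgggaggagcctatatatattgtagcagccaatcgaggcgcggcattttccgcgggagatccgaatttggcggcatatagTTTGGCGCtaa
Mcm7 (chr5:138171834-138172133, minus strand): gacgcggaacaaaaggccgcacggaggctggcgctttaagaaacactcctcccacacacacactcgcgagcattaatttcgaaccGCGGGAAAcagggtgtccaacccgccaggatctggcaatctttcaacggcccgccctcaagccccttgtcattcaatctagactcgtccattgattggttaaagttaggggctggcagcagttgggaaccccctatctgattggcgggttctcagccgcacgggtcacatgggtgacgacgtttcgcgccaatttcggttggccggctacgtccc

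Mitosis genes lay lower too, but followed 1 library. Of 21 tested genes 20 were below 0 with a median of -0.37, yet in none did the groups separate. DTR replicate 3 was the lowest library for 17 of them, and the median was -0.12 without it and -0.72 without DTR replicate 2. Mki67, the proliferation antigen, had 40.2, 58.5 and 40.5 CPM in DTR cells, against 54.3, 59.3 and 63.95 CPM in WT cells (log2 change -0.35 ± 0.19). Cdc20, which starts anaphase, had 27.9, 55.1 and 21.7 CPM in DTR cells, against 45.3, 59.8 and 65.5 CPM in WT cells. Cdkn1a, the inhibitor p21, had 288, 323 and 207 CPM in DTR cells, against 258, 350.0 and 387 CPM in WT cells (log2 change -0.29 ± 0.19).

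Ribosomal protein genes were lower in DTR cells by a small and even step. All 29 tested genes had a log2 change below 0 (median -0.21), and 14 did not overlap (6.87% of all genes lay lower without overlap). The step followed WT replicate 3, which was the highest library for 26 of them, and without it the median was -0.08. Rpl19, a protein of the large subunit, had 619, 599.5 and 670.5 CPM in DTR cells, against 708, 689.9 and 893 CPM in WT cells. In whole muscle the median of the list was 0.04.

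Energy genes lay in the same direction. Of 30 nuclear genes of the respiratory chain 25 were below 0 (median -0.17), and 15 of the 30 were lowest in DTR replicate 3. In 10 the groups did not overlap, all lower (6.87% of all genes). Cyc1, cytochrome c1, had 517, 532 and 451 CPM in DTR cells, against 584, 570.2 and 741 CPM in WT cells. Of 18 glycolysis genes 15 were below 0 (median -0.16, 5 without overlap, all lower, beside 6.87% of all genes). Pfkfb3, which sets the pace of glycolysis, had 28.6, 24.1 and 19.6 CPM in DTR cells, against 35.1, 29.1 and 35.3 CPM in WT cells (log2 change -0.47 ± 0.20). The medians were -0.11 and -0.03 without WT replicate 3. The 7 tested mitochondrially encoded genes lay the other way, at 0.31, but at -0.06 without WT replicate 3.

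The satellite cell libraries held RNA of both chains of the IL-17A receptor, at levels the data could not tell apart between the groups. These bulk libraries also held tendon and progenitor markers, so they cannot show which of the sorted cells carried the receptor RNA. Il17ra, the chain shared by the family, had 176, 136 and 148 CPM in DTR cells, against 145, 131 and 151 CPM in WT cells, above the 21.6 to 54.99 CPM of whole muscle. Its log2 change was 0.10 ± 0.13 (95% interval -0.20 to 0.39), so a change of 2-fold lies outside the interval. Il17rc, the partner chain, had 37.9, 33.2 and 58.6 CPM in DTR cells, against 51.7, 29.8 and 47.02 CPM in WT cells (log2 change 0.01 ± 0.27, 95% interval -0.58 to 0.60). Per length, Il17ra averaged 45.3 ± 5.604 TPM in DTR cells and 41.9 ± 2.78 TPM in WT cells, and Il17rc 43.1 ± 13.5 and 42.5 ± 11.2 TPM, the 2 chains lying close to each other. Il17rd, a further receptor of the family, averaged 9.73 ± 0.964 TPM in DTR cells and 9.498 ± 1.997 TPM in WT cells.

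Targets of IL-17 went in different directions. Of 19 tested genes of the list 13 were above 0 (median 0.20), 0 passed, and without DTR replicate 3 the median was -0.10. Nfkbiz, the cofactor that IL-17 stabilises, had 109.9, 117 and 123 CPM in DTR cells, against 146, 137 and 158 CPM in WT cells, the lone member of the list without overlap (log2 change -0.34 ± 0.13, edgeR adjusted p = 0.822). Steap4, a metal reductase induced by inflammation, had 108, 128 and 166 CPM in DTR cells, against 112, 105 and 83.3 CPM in WT cells (log2 change 0.43 ± 0.19).

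The secreted targets varied widely within the DTR group. Cxcl1, which attracts neutrophils, had 922, 1232 and 1733 CPM in DTR cells, against 1873, 1772 and 1249 CPM in WT cells. Ccl2, which attracts monocytes, had 416, 1450.1 and 1767 CPM in DTR cells, against 1081, 859.8 and 748 CPM in WT cells. Mmp3, a matrix protease, had 14.2, 137 and 449 CPM in DTR cells, against 131, 102 and 151 CPM in WT cells. In all 3, DTR replicate 1 was the lowest library and DTR replicate 3 the highest of its group, and the groups overlapped. Ptgs2, the prostaglandin synthase, had the same order with 36.1, 134 and 251 CPM in DTR cells, against 100.4, 79.1 and 43.2 CPM in WT cells. Of 23 tested NF-kB and TNF targets 15 were below 0 (median -0.08), and DTR replicate 1 was the lowest library for 15 of the 23. The median was -0.04 without it and 0.02 without both libraries that stood apart.

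The gp130 pathway, through which IL-6 and LIF act on satellite cells, stood somewhat higher in DTR cells. Of 17 tested genes 13 were above 0, 0 passed, and the median was 0.30 (0.19 to 0.35 with 1 library left out). In 4 the groups did not overlap, all higher (6.41% of all genes). The summed level of the list was 2194, 2144 and 2421 CPM in DTR cells, against 1854, 1911 and 1688 CPM in WT cells. Il6st, gp130 itself, had 316, 305 and 387 CPM in DTR cells, against 278, 286 and 211 CPM in WT cells (log2 change 0.38 ± 0.15). Jak1, its kinase, had 390.3, 429.9 and 403 CPM in DTR cells, against 319, 369 and 304 CPM in WT cells, and Stat3, the factor it activates, 465, 434 and 446 CPM in DTR cells, against 342, 354 and 413 CPM in WT cells. Pim1, a target kinase, was the last of the 4.

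Growth factor genes held some members above the background. Of 22 tested genes 12 were above 0 (median 0.04, and -0.04 without DTR replicate 2). In 5 the groups did not overlap, all higher (6.41% of all genes). Hbegf, a ligand of the EGF receptor and also the molecule that binds diphtheria toxin in sensitive species, had 172, 167 and 153 CPM in DTR cells, against 125, 92.1 and 106 CPM in WT cells (log2 change 0.60 ± 0.14, 95% interval 0.29 to 0.91, edgeR adjusted p = 0.708). Igfbp6, which binds IGF2, had 235, 267 and 267 CPM in DTR cells, against 200.2, 134 and 179 CPM in WT cells (log2 change 0.58 ± 0.16). Fgf7, a mesenchymal growth factor, was low, with 7.02, 2.74 and 3.98 CPM in DTR cells, against 1.46, 0 and 1.195 CPM in WT cells. It passed the count filter by the DTR libraries alone, so its separation is no further result. The others without overlap were Fgf2 and Igf1.

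Cytokines made by resident cells lay higher as well, in 13 of 16 tested genes (median 0.26). Without overlap were 3 above and 1 below, beside 6.41% and 6.87% of all genes. Cxcl14, a chemokine of epithelia and fibroblasts, had 41.1, 70.2 and 121 CPM in DTR cells, against 48.6, 45.5 and 40.2 CPM in WT cells (log2 change 0.80 ± 0.35). The median of the list was 0.60 without DTR replicate 1 and 0.06 without DTR replicate 3.

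Immediate early genes, which respond within minutes to stress and to dissociation, followed a single library. Of 23 tested genes 20 were above 0 with a median of 0.44, and DTR replicate 1 was the highest library for 19 of them. Without it the median was 0.07. Fos had 432, 44.9 and 90.97 CPM in DTR cells, against 39.9, 72.1 and 83.9 CPM in WT cells, so that DTR replicates 1 and 3 stood above every WT library and DTR replicate 2 did not. Egr1 had 881, 214 and 199 CPM in DTR cells, against 141, 171 and 193 CPM in WT cells, where all 3 DTR libraries stood above WT cells. Nr4a2, a nuclear receptor of the same class, had 78.97, 71.3 and 78.4 CPM in DTR cells, against 49.5, 66.5 and 39.05 CPM in WT cells, also without overlap and not led by that library to the same extent.

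DTR replicate 1 also stood apart in marker RNA of other cells. Markers of Schwann cells summed to 736 CPM there, against 256 to 288 CPM in the other 5 libraries. Erythrocyte markers summed to 74.1 CPM there, against 1.16 to 3.47 CPM in the other 5. Endothelial markers summed to 42.5 CPM there, against 16.1 to 24.5 CPM. B cell markers summed to 13.7 CPM there, against 0.166 to 1.09 CPM, and T and NK markers to 5.62 CPM, against 1.39 to 2.74 CPM. All 12 tested fibre markers had a log2 change above 0, with a median of 3.64, which was -0.16 without this library. The 3 tested glial markers had a median of 2.18, which was -0.45 without this library. Of the 11 genes called by DESeq2, 7 had their highest DTR value in this library (Thbs1, Igtp, Ccl11, Pdgfrb, Kcne4, Vdr and Tnmd). Markers of pericytes and smooth muscle, a list that holds Pdgfrb, summed to 781, 437 and 461 CPM in DTR cells, against 447, 427 and 699 CPM in WT cells, and their part in these results was not tested.

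Matrix genes as a class depended on which libraries were kept. Of 28 tested collagen and basement membrane genes 18 were above 0 (median 0.09), with 4 without overlap, all higher (6.41% of all genes). The median was 0.01 without WT replicate 2, 0.20 without WT replicate 3 and 0.29 without both libraries that stood apart. Lamb2, a laminin chain of synaptic and muscle basement membrane, had 198, 181 and 225 CPM in DTR cells, against 138, 142 and 152 CPM in WT cells (log2 change 0.48 ± 0.13). Lum, the proteoglycan lumican, had 69.3, 93.2 and 84.7 CPM in DTR cells, against 55.9, 49.9 and 37.7 CPM in WT cells (log2 change 0.78 ± 0.19). Mmp19, a matrix protease, had 10.9, 13.5 and 17.3 CPM in DTR cells, against 4.75, 10.5 and 5.18 CPM in WT cells (log2 change 1.03 ± 0.35). In whole muscle the median of the collagen list was -0.31. Its sums there were 3923, 7919 and 6755 CPM in DTR muscle, against 6980, 7925 and 7784 CPM in WT muscle. The groups overlapped, and whole muscle DTR replicate 1 was the lowest library.

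Among genes lower in DTR cells the smallest p belonged to genes of diverse roles. Extl1, an enzyme of heparan sulphate synthesis, had 25.6, 24.4 and 21.6 CPM in DTR cells, against 40.8, 40.9 and 42.2 CPM in WT cells (log2 change -0.80 ± 0.17, 95% interval -1.16 to -0.43, edgeR adjusted p = 0.657). Tcirg1, a subunit of the proton pump, had 183, 194 and 154 CPM in DTR cells, against 255, 247 and 287 CPM in WT cells (log2 change -0.58 ± 0.13). Lrrc17, a secreted leucine-rich protein, had 22.3, 18.4 and 20.8 CPM in DTR cells, against 37.3, 31.5 and 36.3 CPM in WT cells (log2 change -0.78 ± 0.18). These 3 genes kept the groups well apart and varied little within them, which describes genes chosen by their small p and is no further result.

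Edn1, the vasoconstrictor endothelin 1, was low, with 2.81, 2.55 and 1.83 CPM in DTR cells, against 7.495, 5.35 and 5.38 CPM in WT cells (log2 change -1.35 ± 0.38). Bok, a BCL2 relative of the cell death machinery, had 116, 108 and 106 CPM in DTR cells, against 153, 144 and 159 CPM in WT cells (log2 change -0.48 ± 0.12). Chac1, a glutathione-degrading enzyme induced by Atf4, had 18.6, 28.4 and 23.2 CPM in DTR cells, against 46.3, 29.6 and 55.4 CPM in WT cells (log2 change -0.91 ± 0.26). In all 3 the groups did not overlap, although Chac1 came close, with 28.4 CPM in DTR replicate 2 and 29.6 CPM in WT replicate 2. These 3 genes too were chosen by their small p.

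Genes of the p53 response lay slightly lower, 13 of 21 tested being below 0 (median -0.12). In 4 the groups did not overlap, all lower (6.87% of all genes). The median was 0.01 without DTR replicate 3. Pmaip1, the death inducer Noxa, had 4.91, 8.21 and 2.99 CPM in DTR cells, against 9.14, 12.998 and 9.16 CPM in WT cells (log2 change -0.96 ± 0.37), and Bbc3, the related Puma, 1.75, 2.19 and 1.99 CPM in DTR cells, against 3.47, 3.06 and 3.98 CPM in WT cells (log2 change -0.82 ± 0.42). Of 26 tested genes of the integrated stress and unfolded protein response 16 were below 0 (median -0.05). In 6 the groups did not overlap, all lower (6.87% of all genes). Mthfd2, a mitochondrial folate enzyme, had 222, 241 and 168 CPM in DTR cells, against 279, 270.1 and 321 CPM in WT cells (log2 change -0.47 ± 0.15).

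Several pathways of satellite cell biology showed medians near that of all genes. TGF-β and BMP signalling had a median of 0.03 over 21 tested genes with none separating the groups, Wnt signalling -0.01 over 15, genes of quiescence -0.06 over 19, ribosome biogenesis -0.03 over 22 and the proteasome -0.04 over 21. Cholesterol synthesis and fatty acid oxidation were at 0.00 and 0.01. The circadian clock list was at 0.20 with 14 of 18 above 0. DTR replicate 1 was the highest library for 11 of the 18, and the median was 0.05 without it. Heat shock genes were at 0.21 with 11 of 16 above 0, and at 0.07 without both libraries that stood apart. With 1 library left out the medians of 3 lists lay on either side of 0: TGF-β and BMP signalling ran from -0.02 to 0.15, Wnt signalling from -0.18 to 0.09 and quiescence from -0.12 to 0.09.

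Single genes in these pathways stood out by their values. Wnt10a, a Wnt ligand, had 6.49, 6.75 and 5.81 CPM in DTR cells, against 9.51, 9.94 and 11.6 CPM in WT cells (log2 change -0.71 ± 0.27). Sfrp2, a secreted Wnt modulator, had 5.97, 4.56 and 10.3 CPM in DTR cells, against 3.11, 1.15 and 2.19 CPM in WT cells (log2 change 1.68 ± 0.48). Hspb8, a small heat shock protein of muscle, had 98.97, 64.9 and 62.9 CPM in DTR cells, against 33.3, 52.6 and 44.8 CPM in WT cells (log2 change 0.78 ± 0.21).

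**Figure D5:**
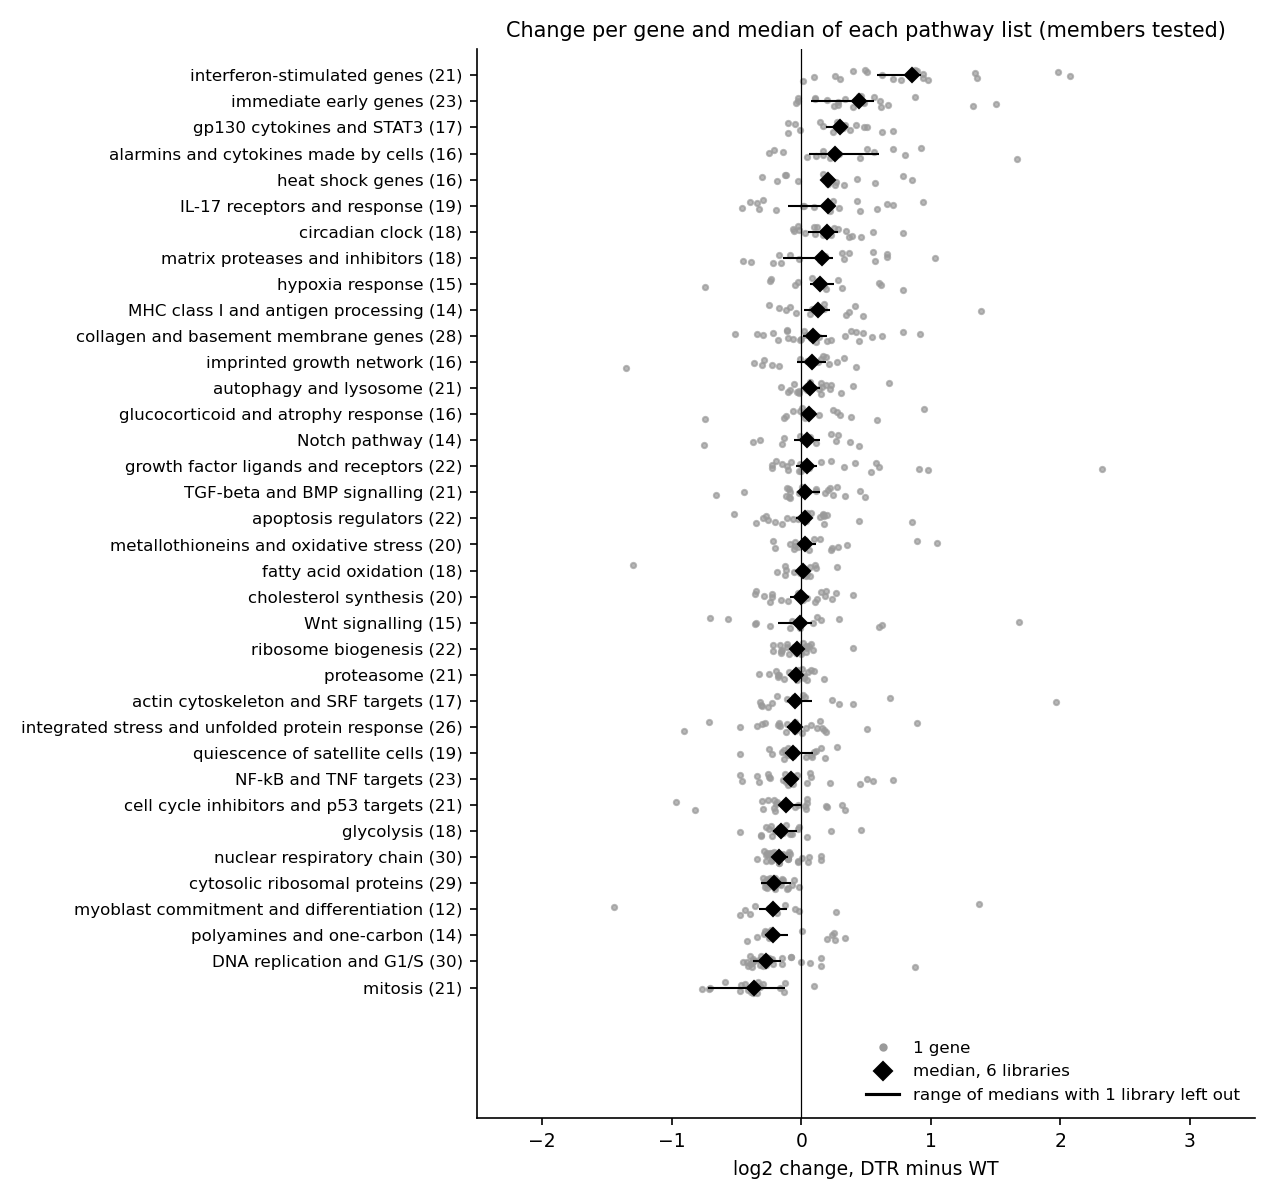
Median log2 change, DTR minus WT (x axis), of the pathway lists with 10 or more tested members; diamonds are medians over all 6 libraries, bars span the medians with 1 library left out, and points are the members. The interferon-stimulated genes have the highest median of these lists (0.85) and mitosis the lowest (-0.37), with a bar of -0.72 to -0.12.

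Whole muscle of the same day gives the contrast in tissue that holds these cells among many others. Of 13315 genes tested there 0 passed with edgeR (0%), and 503 were at an unadjusted p under 0.05. The interferon list had a median of -0.07 over 23 tested genes. It summed to 280, 901 and 376 CPM in DTR muscle, against 406, 555 and 458 CPM in WT muscle, so the groups overlapped. Igtp had a log2 change of -0.40 in whole muscle, Myoc -0.61, Pdgfrb -0.40, Dpp4 -0.43 and Thbs1 -0.31, all below 0, while Ccl11 had 0.48. These are some of the 11 genes that DESeq2 called in satellite cells, and none of them passed in whole muscle.

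The difference of the 2 changes, satellite cells minus whole muscle, was tested in 1 fit of 12 libraries. None of 14570 genes passed with edgeR (0%), and 602 were at an unadjusted p under 0.05. For Myoc the difference was 1.86 ± 0.35, for Igtp 2.63 ± 0.56 and for Pdgfrb 1.47 ± 0.29, with edgeR adjusted p of 0.666, 0.728 and 0.666. DESeq2 called these 3 and Alms1, a centrosome gene, with adjusted p of 0.0244 for Myoc, Pdgfrb and Alms1 and 0.0260 for Igtp. A change limited to satellite cells is therefore not established for any gene by the main test.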

How the data were processed

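Polyadenylated RNA was sequenced from 1000 sorted satellite cells or 2 ng of whole muscle RNA per library. The deposited values were raw counts of reads per gene symbol. Per the submitters' processing notes, the tools were STAR 2.7.3a, featureCounts and Subread 2.0.0, on mm10. Kit, annotation, strandedness and the treatment of multi-mapping reads were not given in the sources used here. Values of near-identical, overlapping or antisense genes are therefore uncertain, as are repeat-like symbols such as Gm10800.

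Groups came from the labels. The main test was edgeR's quasi-likelihood test (edgeR 4.0.16, R 4.3.3, limma 3.58.1, robust fit, TMM scaling) on the 6 satellite cell libraries over 12196 genes, called at an adjusted p (Benjamini-Hochberg) under 0.05 whatever the fold. Whole muscle was fitted on its own 6 libraries, and the difference on all 12. Single values had exact permutation tests, 2-sided. TPM was computed from the deposited counts with annotated transcript lengths, and 12032 tested genes had 1 position in the mm10 annotation. Total counts of 5019474 to 6024015 per library gave a median 95% interval of 0.51 either way on the log2 scale. PCR copies cannot be removed, so counting intervals cover counting error only. Replicates of a group were not copies of one another (chi-square per degree of freedom 4.41 to 20.0). The tests were checked on simulated counts.

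The 53 lists held 895 symbols, of which 880 were found and 732 tested. The members and lists were chosen with earlier results of these data known. The rule for named genes took, in each direction, the 10 largest folds and the 10 smallest p of genes that passed, up to 4 passing genes per list (or, where none passed, the 2 of smallest p), and 9 genes always. Genes named beyond it were chosen after their values were seen, and a listed gene is not reported here by name. Alternatives were DESeq2 1.42.0, its size factors in edgeR, library size alone, another or no filter on low counts, an offset for length and GC content, the replicate number as a block, each library left out, and, chosen after seeing the data, both libraries that stood apart left out.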

Additional observations from a re-analysis of the deposited data

How the results depend on the processing

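Counts of calls in satellite cells depended on the tool and the filter. With DESeq2, 11 genes were higher and 0 lower in DTR cells. With no filter on low counts, 94 were higher and 7 lower of 34171 genes (0.296%), Smoc2, Thbs1 and Wif1 among them. The smallest adjusted p there was that of Csrp3 (log2 change 4.95, edgeR adjusted p = 2.34e-07). The erythrocyte marker Hba-a2 (6.30) and the glial marker Cdh19 (5.01) were also among the genes called. DTR replicate 1 stood apart for fibre, erythrocyte and glial markers, and its part in this count was not tested. Leaving out 1 library gave 0 to 2 genes higher, the 2 being Smoc2 and Thbs1 without WT replicate 3, and 0 lower. Leaving out both libraries that stood apart, chosen after seeing the data, gave 3 higher (Smoc2, Thbs1 and Wif1). DESeq2's size factors, library size alone, edgeR's own filter on low counts and an offset for length and GC content gave 0 in both directions, with 731, 711, 719 and 839 genes at an unadjusted p under 0.05. The replicate number as a block gave 0 higher and 0 lower, with 620 at an unadjusted p under 0.05. The correlations of same-numbered libraries' deviations were -0.060, 0.003 and -0.029, which with 3 libraries a group cannot decide whether samples were paired. In the labels, replicates 2 and 3 of the satellite cells carry original numbers that differ between the groups. For them the block therefore rests on order alone. For the difference between satellite cells and whole muscle the count was 45 with no filter, 4 with DESeq2, 1 with the replicate block (Rpl3l) and 0 to 2 with 1 library left out, the 2 being Entpd1 and Myh11 without DTR replicate 3 and the 1 being Smoc2 without WT replicate 3. The scaling moved the median of all genes little, to 0.01 with DESeq2's size factors and 0.02 with library size alone. Of the 119 named genes' values under the alternatives, 1522 kept their direction and side of the threshold within 1 standard error of the main value. A further 77 kept both but lay farther from the main value. Another 40 passed the threshold in the same direction. The other 18 changed sign, in 10 genes, none of them past the threshold on either side. With no filter on low counts Il17rc was at -0.00956 (log2), against 0.01 in the main analysis. With the offset for length and GC content Pax7 was at 0.0157 and Rian at -0.0422. With both libraries that stood apart left out, Pax7 was at 0.28, mt-Cytb at -0.0419, Txnip at -0.17, Tek at -0.00852, Cd14 at 0.0246 and Casq1 at -0.11. With 1 library left out Pax7 ran from -0.19 to 0.20, Il17rc from -0.30 to 0.17, Lipe from -0.32 to 0.16, Csf1r from -0.54 to 0.41, mt-Cytb from -0.0733 to 0.45 and Cd14 from -0.48 to 0.0525. The median log2 change changed sign under an alternative for 20 of the 48 lists. With 3 libraries a group and the depths given above, genes of a few counts such as Trdc were below what the test across genes can read, and groups of 3 are too small to test for outlying samples.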
